A study of Mus musculus with 3 samples.

Results

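Triglyceride is made, stored and broken down by a small set of genes, and 42 of them were followed here in 3T3-L1 adipocytes exposed to glucose oxidase. The genes were taken from a list of named enzymes, carriers and droplet proteins. Of the 42, 39 were measured, meaning that at least 1 probe set is annotated to that gene alone, out of 18194 such genes on the array. Plin1, Acsl1 and Gk had no such probe set in the annotation used and were not measured. 3T3-L1 is an established mouse fibroblast line that turns into fat cells in culture, and glucose oxidase makes hydrogen peroxide from glucose in the medium. All 3 samples form a single group of differentiated cells exposed to the enzyme for 2 h, and the labels name no genetic change. Control arrays were not analysed here, so each value below is a level after treatment, and no fold change of the treatment can be given. Separate cultures are not stated for the replicates, so differences among them can be technical.

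Fat cells build triglyceride by adding fatty acyl chains to glycerol 3-phosphate, removing the phosphate and adding a last chain. The product is kept in droplets coated with perilipins and fused with the help of CIDE proteins. When energy is needed, lipases on the droplet surface release the chains again in turn, under hormonal control. Insulin favours storage and restrains lipolysis, which is why these genes are often read in studies of insulin resistance.

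Levels are log2 of the deposited intensity of the probe set with the highest mean for each gene. Only probe sets annotated to 1 gene were used. RMA, the method named for these values, usually gives log2 values, but the deposited ones are too large for that scale and were taken as linear. A gene was called above background when a probe set exceeded 7.50 in each of the 3 arrays. This limit is the 95th percentile of 83 receptor probe sets (odour, pheromone and taste genes that fat cells are not known for). Probe sets differ in how brightly they report a transcript, so a higher value for one gene than for another does not mean more of its mRNA. In the pooled RNA of a culture, fewer cells expressing a gene and less of its RNA per cell cannot be told apart. Median intensities were 127.6, 126.9 and 126.9 in replicates 1, 2 and 3. The authors had already normalized these values, so the medians do not show how alike the arrays were in brightness before that.

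The cells carried adipocyte transcripts, although the tissue label names preadipocytes. Of 8 measured adipocyte markers, 6 were above background, against 55.7% of all measured genes. The 6 included Adipoq at 14.49 ± 0.031 (SD, n = 3), and the exceptions were Lep and Acvr1c. None of the marker counts was tested against the share of all genes. Of 10 preadipocyte and fibroblast markers, 8 were also above background, including Dlk1 at 13.24 ± 0.10 (SD, n = 3). The markers not above it were Cd34 and Gata3. That Dlk1 probe set can cross-hybridise, and the gene's other probe set was not above background. Of 6 brown adipocyte markers, 0 were above background. For the other cell types the counts were 2 of 8 for macrophage, 1 of 8 for endothelial, 1 of 8 for muscle, 2 of 7 for liver and 1 of 7 for intestinal markers. The markers that passed were Csf1r, Lyz2, Kdr, Ckm, Ttr, Cyp2e1 and Lgals4.

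Each step of the triglyceride pathway had members above background. Of the 39 measured members, 33 were above background (84.6%), against 55.7% of all measured genes. The 6 that were not were Slc27a3, Fabp3, Acsl6, Lpin3, Mogat1 and Plin5, each of them 1 of several isoforms for its step. At every step another isoform was above background. The call did not separate transcripts that glucose oxidase altered from those present without it. Of 50 other measured genes of the pathway, named from a separate list, 35 were above background (70%). Both lists were chosen with earlier results of these data known, so their shares are descriptive and not a test against all genes.

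**Figure D1:**
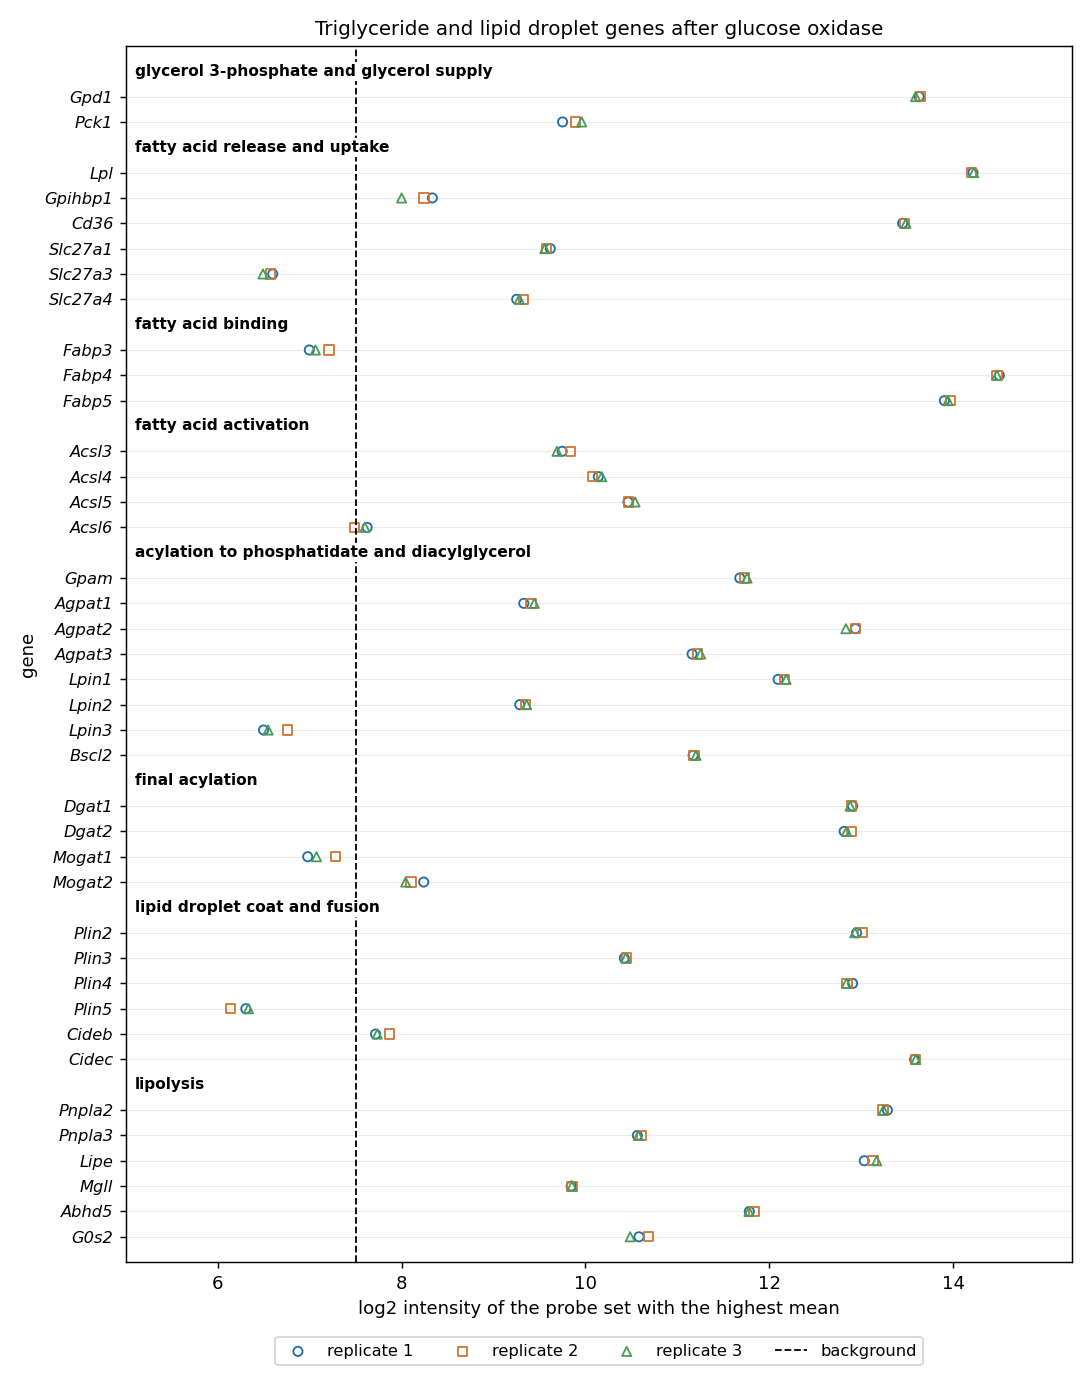
Log2 intensity (x axis) of the 39 measured genes (y axis), grouped by their step in triglyceride metabolism, with 1 symbol for each of the 3 glucose oxidase arrays and background as a dashed line at 7.50. In 33 genes all 3 symbols lie to the right of the line, Acsl6 straddles it, and the heights of different genes are not comparable.

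Glycerol 3-phosphate, the backbone of triglyceride, is made by the dehydrogenase encoded by Gpd1, and fat cells can also form it from pyruvate through the carboxykinase encoded by Pck1. Gpd1 was at 13.63, 13.65 and 13.59 in replicates 1, 2 and 3. Pck1 was at 9.75, 9.90 and 9.96, so that replicate 1 was the lowest and the arrays spanned 0.21. The second Pck1 probe set above background was also lowest in replicate 1, at 8.10 against 8.24 and 8.23. All 4 other genes of this step, Gpd1l, Gpd2, Aqp7 and Pck2, were above background. Aqp7, the glycerol channel of fat cells, was at 9.19 ± 0.080 (SD, n = 3).

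Fatty acids reach the fat cell from lipoproteins cut by lipoprotein lipase and enter with the help of CD36 and the fatty acid transport proteins. The lipase gene Lpl was at 14.22, 14.20 and 14.23, within 0.021 across the arrays. Cd36 was at 13.45, 13.47 and 13.49. Both were above background in every probe set annotated to them alone, 2 for Lpl and 3 for Cd36. Among the transporters, Slc27a1 was at 9.62, 9.58 and 9.56 and its second probe set had nearly the same mean, 9.58. Slc27a4 was at 9.25, 9.33 and 9.28. Slc27a3, in contrast, stayed below background in all 3 arrays, at 6.60, 6.57 and 6.49. Of 9 other measured genes of this step, 6 were above background, and Slc27a2, Slc27a5 and the endothelial lipase gene Lipg were not. The 6 included Angptl4, an inhibitor of lipoprotein lipase, at 12.01 ± 0.090 (SD, n = 3). That level came from a probe set that can cross-hybridise, and the other Angptl4 probe set was not above background.

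Gpihbp1 encodes the protein that holds lipoprotein lipase on the capillary wall, and it had the widest spread of all 33 members above background. Its values were 8.33, 8.24 and 8.00, a range of 0.33, with replicate 3 the lowest. It has 1 probe set, so the range could not be set against another. Of the 8 endothelial markers, 7 were below background, at 4.996 to 6.62, and Kdr was at 8.29. The part of endothelial RNA in the Gpihbp1 signal was not tested. With the 99th percentile of the receptor probe sets as background, 8.05, Gpihbp1 was not above it.

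Inside the cell, fatty acids are carried by small binding proteins, and these genes fell on both sides of background. Fabp4, the binding protein of mature adipocytes, was at 14.50, 14.48 and 14.48. All 4 of its probe sets were above background and all 4 were highest in replicate 1, although their means ran from 9.39 to 14.49. Fabp5 was at 13.91, 13.97 and 13.95. Fabp3, the form of heart and skeletal muscle, was below background with both of its probe sets, at 6.99, 7.21 and 7.06 for the higher of them. Of 8 muscle markers, 7 were below background as well. The forms of other tissues, Fabp1, Fabp2, Fabp6, Fabp7 and Fabp9, were at 4.02 to 5.11 and not above background. Dbi, which encodes the acyl-CoA binding protein, was at 13.75 ± 0.0098 (SD, n = 3), with all 4 probe sets above background. The brightest Dbi probe set can cross-hybridise.

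Before they can be esterified, fatty acids are joined to coenzyme A by long-chain acyl-CoA synthetases. Acsl3, whose product is found on forming droplets, was at 9.75, 9.84 and 9.69. Acsl4, which prefers arachidonic acid, was at 10.14, 10.07 and 10.18. Acsl5 was at 10.46, 10.47 and 10.54. In these 3 genes the arrays differed by 0.15 or less. Acsl6, a form of the brain, was the only member whose brightest probe set had arrays on both sides of background, at 7.62, 7.49 and 7.60. It was above background with the 90th percentile of the receptor probe sets and without replicate 2. The level of Acsl3 depended on a probe set that can cross-hybridise and was 8.63 without it. Of 3 other synthetases, Acss2 was above background and Acsbg1 and Acsbg2 were not.

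The first acylations are carried out by glycerol-3-phosphate acyltransferases such as the one encoded by Gpam and by the lysophosphatidate acyltransferases of the Agpat genes. Lipins then remove the phosphate to give diacylglycerol. Gpam was at 11.68, 11.73 and 11.76. Agpat1 was at 9.33, 9.41 and 9.44. Agpat3 was at 11.16, 11.22 and 11.25. Replicate 1 was thus the lowest and replicate 3 the highest in the brightest probe set of each of these acyltransferase genes. The other probe sets of Gpam and Agpat3 above background were also lowest in replicate 1 but highest in replicate 2. Agpat2, the form that is lost in an inherited lack of fat, went the other way at 12.94, 12.94 and 12.83, with replicate 3 the lowest. Lpin1, the main lipin of adipose tissue, was at 12.10, 12.16 and 12.18. Lpin2 was at 9.29, 9.35 and 9.36. Lpin3 was the one lipin gene below background, in all 3 arrays, at 6.50, 6.76 and 6.55. Of the 4 probe sets of Lpin2, 1 was above background, so with the median of its probe sets Lpin2 was at 7.39 and not above it. Bscl2 encodes seipin, a protein of the endoplasmic reticulum at sites of droplet formation that was grouped with these enzymes, and was at 11.17, 11.18 and 11.20. Of 9 other genes of this step, 8 were above background, and the exception was Gpat2, a form of the testis. Gpat3, a form induced as preadipocytes differentiate, was at 11.96 ± 0.082 (SD, n = 3), and Gpat4 at 10.48 ± 0.13 (SD, n = 3).

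Replicate 1 was the lowest array in most members of this step and in a minority of its other genes, a comparison chosen after the values were seen. Of the 7 members above background, 6 were lowest in replicate 1, all but Agpat2, and replicate 1 was lowest in 44.3% of all genes above background. Of the 8 other genes of the step above background, 2 were lowest in replicate 1, Gpat3 and Gpat4. The others were lowest in replicate 2 (Agpat4 and Plpp1) or replicate 3 (Agpat5, Plpp2, Plpp3 and Tmem159). The differences in the members were small, with a range across the arrays of 0.031 to 0.11. After quantile normalization of the arrays, 5 of the 7 were lowest in replicate 1.

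The last chain is added by the diacylglycerol acyltransferases, which are unrelated in sequence, while the monoacylglycerol acyltransferases feed the same step from monoacylglycerol, a route best known from the intestine. Dgat1 was at 12.91, 12.89 and 12.88. Dgat2 was at 12.82, 12.90 and 12.84. Both diacylglycerol acyltransferase genes were above background with all of their probe sets. The higher Dgat1 probe set can cross-hybridise, and without it the gene was at 8.62. Mogat1 was below background at 6.98, 7.28 and 7.07. Mogat2 was above it at 8.24, 8.10 and 8.04 but was not with the 99th percentile of the receptor probe sets. Of 7 measured intestinal markers, Lgals4, at 8.00 ± 0.098 (SD, n = 3), was the only one above background. Soat1, Soat2, Awat1 and Awat2, the other genes listed for this step, were not measured.

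On the droplet surface, perilipins control the access of lipases, and the CIDE proteins move lipid from small droplets into large ones. Plin2, which coats droplets in most cell types, was at 12.95, 13.02 and 12.93. Plin4, a perilipin of white fat, was at 12.91, 12.85 and 12.84. Plin3, present in many tissues, was at 10.42, 10.44 and 10.44. These perilipins differed by 0.083 or less between arrays. Plin5, the perilipin of oxidative tissues such as heart, was below background with both probe sets, at 6.30, 6.14 and 6.33 for the higher of them. Cidec, the CIDE gene of white fat, was at 13.58, 13.59 and 13.59, with an SD of 0.0063. Cideb, which acts in liver and intestine, was just above background at 7.72, 7.87 and 7.73. It was not above background with keratin-associated and defensin probe sets as background, 7.91, nor with the 99th percentile of the receptor probe sets, and its 1 probe set can cross-hybridise. Of 9 other droplet genes, 7 were above background, with Fitm2 at 11.15 ± 0.035 (SD, n = 3) and Fitm1 at 8.36 ± 0.017 (SD, n = 3), both of which encode proteins of droplet formation. Cidea, the CIDE gene of brown fat, was at 6.97 ± 0.077 (SD, n = 3) and not above background, as was Hsd17b13, a droplet protein gene of the liver.

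Breakdown begins with adipose triglyceride lipase, encoded by Pnpla2, goes on with hormone-sensitive lipase, encoded by Lipe, and ends with monoacylglycerol lipase, encoded by Mgll. All 6 measured lipolysis members were above background. Pnpla2 was at 13.29, 13.24 and 13.24. Lipe was at 13.03, 13.13 and 13.17, with replicate 1 the lowest. Mgll was at 9.84, 9.85 and 9.85, with the smallest SD of the members above background, 0.0051. That probe set can cross-hybridise, and without it Mgll was at 8.82. Pnpla3, a relative of Pnpla2, was at 10.56, 10.61 and 10.57. The activator and the inhibitor of adipose triglyceride lipase were measured together with it. Abhd5, the activator, was at 11.78, 11.83 and 11.78. G0s2, the inhibitor, was at 10.58, 10.69 and 10.49, so that its arrays spanned 0.20, against 0.056 for Abhd5 and 0.049 for Pnpla2. Of 10 other lipolysis genes, 8 were above background, including Ces1d, which encodes a triglyceride hydrolase, at 12.37 ± 0.034 (SD, n = 3). Pnpla1 and Pnpla5 were not.

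Some of these genes lie side by side in the genome, and neighbours did not always share a call. Among protein-coding genes in RefSeq order (GRCm38.p6), Plin4 is next to Plin5, Mogat1 next to Acsl3, Dgat2 next to Mogat2 and Pnpla3 next to Pnpla5. Plin4 and Acsl3 were above background and their neighbours Plin5 and Mogat1 were not. Pnpla3 was above background and Pnpla5 was not. Dgat2 and Mogat2 were both above it. Fabp9, not above background, lies between Fabp5 and Fabp4 with 1 further gene. Gpam and Acsl5, with 2 genes between them, were both above background. How often neighbours among all genes differ in their calls was not counted, so nothing particular to these pairs can be read from them.

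The promoter windows of the pairs with opposite calls among the members are shown, so that each pair can be compared. RefSeq windows (GRCm38.p6) of 250 bases before to 50 after the transcription start were found for 34 of the 42 members, 50 windows in all, and not for Gpd1, Lpl, Gpihbp1, Fabp4, Fabp5, Dgat1, Dgat2 and Mogat2. Each is printed 5′ to 3′ on the strand of the gene. Plin4 is at chr17:56109733-56110032 on the minus strand, and the first of the 2 windows of Plin5 is at chr17:56117499-56117798 on the minus strand. Mogat1 is at chr1:78510810-78511109 and Acsl3 at chr1:78657575-78657874, both on the plus strand. Capitals mark TATAA and CCAAT on either strand (ATTGG is CCAAT on the other strand).
Plin4: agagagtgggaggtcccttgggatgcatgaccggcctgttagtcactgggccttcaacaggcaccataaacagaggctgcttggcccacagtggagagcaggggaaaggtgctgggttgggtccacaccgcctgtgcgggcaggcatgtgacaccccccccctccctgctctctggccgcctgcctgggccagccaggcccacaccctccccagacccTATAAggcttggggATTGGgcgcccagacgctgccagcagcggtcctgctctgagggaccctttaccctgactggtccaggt
Plin5: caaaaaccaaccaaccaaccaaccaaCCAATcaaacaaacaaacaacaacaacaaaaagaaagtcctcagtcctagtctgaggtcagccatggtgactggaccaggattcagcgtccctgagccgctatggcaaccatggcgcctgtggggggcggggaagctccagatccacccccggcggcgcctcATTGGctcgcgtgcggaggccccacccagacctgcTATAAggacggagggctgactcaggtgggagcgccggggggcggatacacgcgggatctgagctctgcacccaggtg
Mogat1: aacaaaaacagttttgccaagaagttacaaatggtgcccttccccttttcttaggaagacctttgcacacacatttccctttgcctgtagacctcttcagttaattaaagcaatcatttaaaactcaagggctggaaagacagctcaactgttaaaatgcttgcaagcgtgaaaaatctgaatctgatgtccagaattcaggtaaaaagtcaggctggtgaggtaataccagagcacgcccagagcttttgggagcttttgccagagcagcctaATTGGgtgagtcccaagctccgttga
Acsl3: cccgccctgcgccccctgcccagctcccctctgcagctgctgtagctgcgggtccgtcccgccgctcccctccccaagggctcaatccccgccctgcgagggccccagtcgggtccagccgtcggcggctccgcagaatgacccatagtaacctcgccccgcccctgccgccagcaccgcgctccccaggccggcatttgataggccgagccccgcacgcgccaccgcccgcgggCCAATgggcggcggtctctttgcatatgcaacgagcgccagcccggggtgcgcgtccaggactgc

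Plin4 and Plin5, with opposite calls, both hold TATAA in the windows shown. This motif starts 32 bases before the transcription start in Plin4 and 27 bases before it in Plin5. The other Plin5 window, which is not shown, lacks this motif. TATAA was in 6 of the 50 member windows (12%) and in 24.9% of all 32851 windows. CCAAT was in all 4 windows shown, in 38% of the member windows and in 37.4% of all windows. Counted from the transcription start, its matches began at -18 in Plin4, -224 and -62 in Plin5 and -15 in Acsl3. In Mogat1 the match began at 24, after the start. TTGCNNAA, a motif of C/EBP factors, was in 10% of the member windows and 10.8% of all windows, and CACGTG, an E-box, in 14% and 7.15%. All motifs were searched on both strands. None of the marked motifs overlap one another. Neither TTGCNNAA nor CACGTG was in the 4 windows shown. A match is a run of letters and not a measured binding site.

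The level of a gene depended on the probe set that reported it. Of the 39 measured members, 24 had more than 1 probe set, and the 78 probe sets of all members included 59 above background. In 8 members, probe sets fell on both sides of background, and the like counts over all genes were not made. Lipe is an example, with 13.11 ± 0.070 (SD, n = 3) for one probe set and 5.20 ± 0.064 (SD, n = 3) for the other. Among probe sets above background, those of Pnpla2 were the farthest apart, at 13.26 and 7.66. Those of Slc27a1 differed by 0.0019. With the median of the probe sets of a gene, 15 of the 39 levels were lower by more than 1.5-fold, and 32 members were above background in place of 33.

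**Figure D2:**
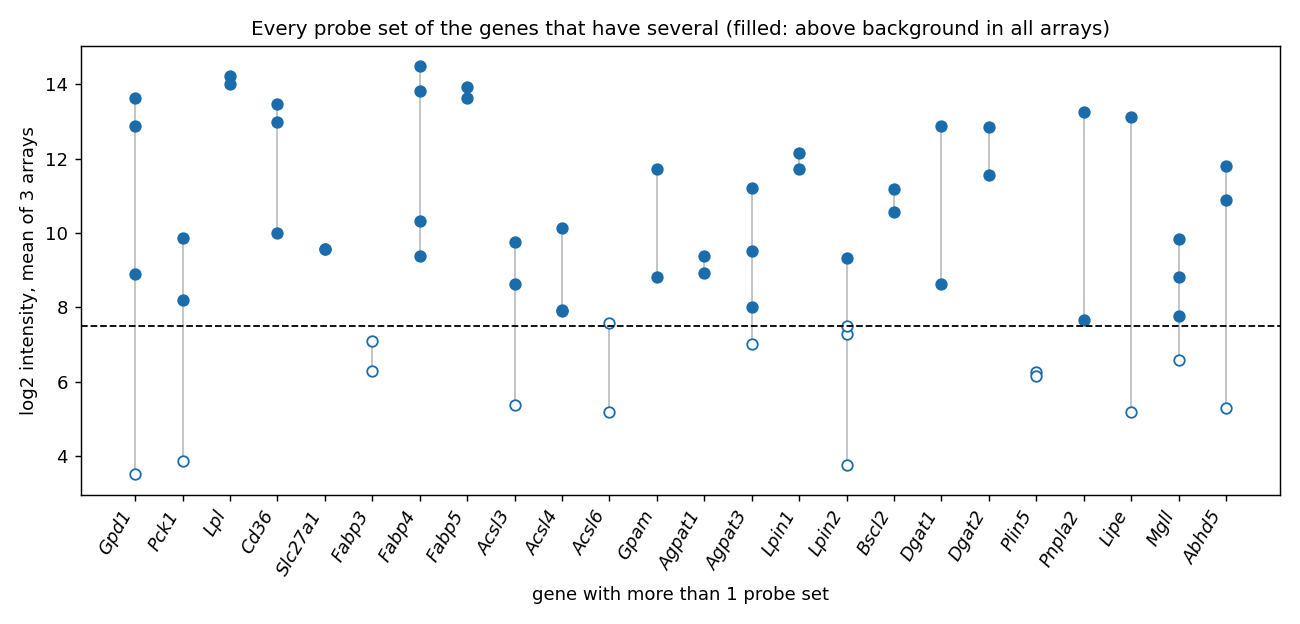
Mean log2 intensity over the 3 arrays (y axis) of every probe set of the 24 members that have more than 1 (x axis), with filled circles for probe sets above background in all 3 arrays, open circles for the others and background as a dashed line. In 8 genes filled and open circles both occur, and the circles of Slc27a1 coincide at 9.58.

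Differences between the arrays were also compared across probe sets of the same gene. Of 19 members with at least 2 probe sets above background, 5 had the same highest replicate in all of them (Fabp4, Cd36, Dgat1, Dgat2 and Agpat1), against 36.9% of the 4003 genes of this kind. The lowest replicate was the same in 7 of the 19 (Agpat1, Agpat3, Bscl2, Gpam, Lpin1, Pck1 and Pnpla2), against 36.8%. For Fabp4 the differences were 0.027 for the brightest probe set and 0.18 for the next, with replicate 1 the highest in each. The shares of the members were thus no higher than those of all genes.

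**Figure D3:**
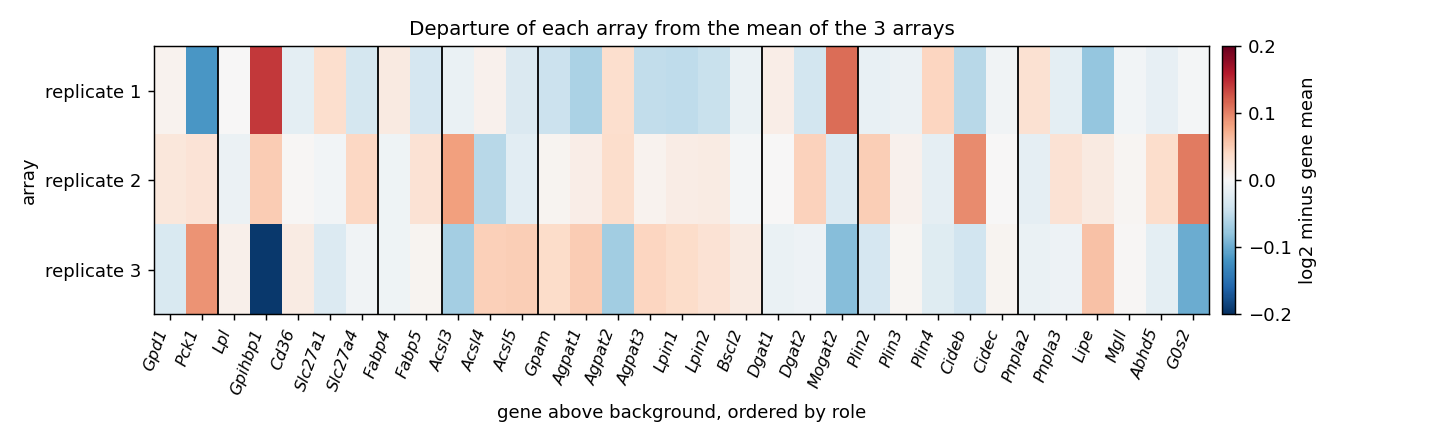
Departure of each array from the mean of the 3 arrays in log2 units (colour), for the 33 members above background (x axis, black lines between steps) and each replicate (y axis). Gpihbp1 has the widest departures, its 3 values spanning 0.33, and 6 of the 7 genes from Gpam to Bscl2 are lowest in replicate 1.

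The replicate arrays agreed closely for these genes after the authors' normalization, so the SDs do not show the spread before it. The median SD between arrays of the 33 members was 0.040 on the log2 scale, against 0.048 for the 10136 genes above background, and 23 of the 33 lay under the latter. The median SD of all genes fell with their level, and the members were therefore also set beside genes of like level. With a mean level of 12 or more, the median SD was 0.030 for 14 members and 0.031 for 692 genes. From 9 to 12 it was 0.040 for 16 members and 0.046 for 5638 genes. Under 9, the 3 members Gpihbp1, Mogat2 and Cideb had a higher median than the genes of that level, 0.10 against 0.058 for 3806 genes. In 30 of the 33 members the arrays lay within 0.2 of each other, and the exceptions were Gpihbp1, Pck1 and G0s2. The share of all genes above background within that limit was not counted, so this count describes the members only.

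**Figure D4:**
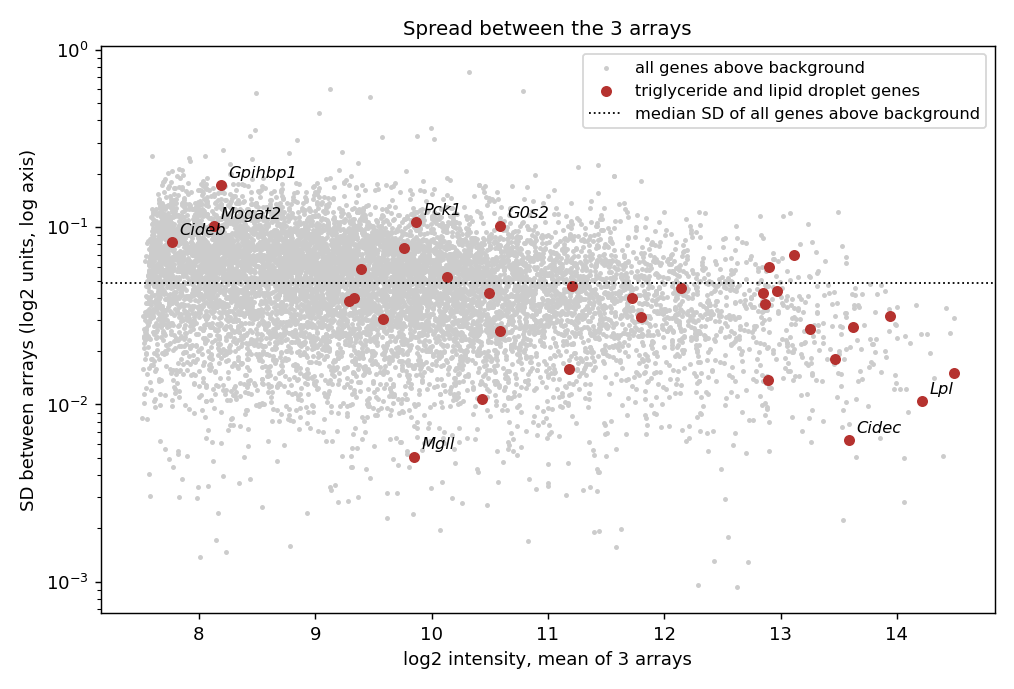
SD between the 3 arrays (y axis, log scale, log2 units) against the mean log2 intensity (x axis) for the 33 members (red) and all 10136 genes above background (grey), with the median SD of the latter as a dotted line at 0.048. Gpihbp1 has the largest SD of the members, 0.17, and Mgll and Cidec the smallest, 0.0051 and 0.0063.

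Pairs of arrays were compared for the members and for all genes above background. Replicate 2 was higher than replicate 1 in 24 of the 33 members (72.7%), against 61.6% of the genes above background, and the median difference was 0.021 for both. In 20 of the 33 (60.6%) replicate 3 was higher than replicate 1, against 58.8%, with a median difference of 0.013 for the members and 0.020 for all genes. Replicate 3 exceeded replicate 2 in 14 of the 33 (42.4%), against 50.9%, and the median difference was -0.0056 for the members and 0.0017 for all genes. After quantile normalization the counts were 20, 17 and 15.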

How the data were processed

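Transcripts were measured in 3 glucose oxidase samples (3T3-L1 adipocytes) on the mouse4302 Affymetrix array. The deposited values are probe set intensities, background-corrected and normalized by the authors with RMA in affyPLM. RMA usually gives log2 values, whereas these were taken as linear from their size, with the step between them unknown. The version of affyPLM, the arrays normalized together and any later scaling or centring are not given in the sources used here. Log2 was taken of each intensity. The number of arrays limits the precision.

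Of 45101 probe sets, 34958 named 1 gene, 932 several and 9211 none in the platform annotation. Entrez identifiers matched 34754 of the 34958 to RefSeq (GRCm38.p6), and 0 symbols changed. A gene's level is that of its brightest probe set by mean. The members and lists were chosen with earlier results of these data known. All members are named, and among pathway and marker genes mainly those that did not pass, or that passed for other cell types; others were chosen after their values were seen. With 1 group, no test was made, and counts stand beside those of all genes. Calls and SDs were also run on simulated data. Its genes were set either well above the background probe sets or at their level, so calls of genes between these were not tested. A planned comparison of protein sequences was not made here. Alternatives were other background percentiles (90 and 99) and probe sets (67 for keratin-associated and defensin genes), the median of probe sets, leaving out probe sets with the suffix _s_at or _x_at, centring, quantile normalization, no filter on dim genes, and leaving out each array. Python 3.11.15, pandas 2.3.3, numpy 2.4.6 and matplotlib 3.10.9 were used.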

Additional observations from a re-analysis of the deposited data

How the results depend on the processing

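No paired analysis was possible because there is only 1 group. The number of members above background, 33, was 30 to 34 under the alternatives, and that of other pathway genes, 35, was 33 to 35. Over all measured genes the count was 10136 as deposited. It was lowest with the median of probe sets, 8230, and highest with the 90th percentile of the receptor probe sets, 10611. The calls that changed were those of Acsl6, Gpihbp1, Mogat2, Cideb and Lpin2, and Cideb had no probe set left without those that can cross-hybridise. The median SD between arrays of the members, 0.040, was 0.032 after quantile normalization and 0.0273 to 0.0400 with a single array left out, and the cause was not tested. An SD with an array left out rests on fewer values and is not directly comparable with that of all 3. Counts of members higher in one array than in another stayed within 1.5 times their values, as did the counts by step and the count of acylation genes lowest in replicate 1, whose alternatives were added after the data were seen. Taking the median of probe sets moved 22 of 39 levels by over 1 SD, and dropping those that can cross-hybridise moved 3 of 38. Leaving out 1 of 3 arrays cannot move a mean by more than 1 SD, so it says nothing about the levels. Signal near background limits the calls of Acsl6 and Cideb.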
